A study of Homo sapiens with 2 samples.

Results

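The IFIT and IFITM genes are 2 families of interferon-stimulated genes (ISGs), and their expression was examined in Ca9-22 oral squamous cell carcinoma (OSCC) cells infected with lentivirus carrying DLEU1 or with an empty control virus. Members were every non-control array probe whose gene name in the deposited files was IFIT1, IFIT2, IFIT3, IFIT5, IFITM1, IFITM2 or IFITM3. This gave 7 of 43317 gene names and 9 of 58201 probes, 5 of them for IFIT and 4 for IFITM genes. IFIT2 and IFITM1 had 2 probes each, and the probes of such a pair share a transcript and are not independent measurements.

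Type I interferon binds the IFNAR receptor, whose JAK kinases activate STAT factors. STAT2 and IRF9 are parts of ISGF3, a complex that binds the interferon-stimulated response element (ISRE) in ISG promoters. IFIT proteins are cytoplasmic. IFIT1 binds viral RNA whose cap lacks host methylation, and some IFIT proteins also bind the translation initiation factor eIF3. IFITM proteins sit in the plasma and endosomal membranes and hinder the fusion of enveloped viruses with the cell.

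Ca9-22 is an established human OSCC line. DLEU1 is a long noncoding RNA, and the comparison asks whether cells given extra DLEU1 differ in the expression of these genes. Cells of both groups were infected with lentivirus, one carrying DLEU1 and the other empty, and both were kept under 6 mg/ml blasticidin, as the labels give it, for 2 weeks. RNA of each culture (100 ng) was put on 1 Agilent array after Cy3 labelling, so there were 2 groups of 1 array each, no replicate culture and no test of any difference. The infected cells were not described as single clones, and in bulk RNA fewer expressing cells and less RNA per cell cannot be told apart.

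Levels are log2 processed signals minus the 75th percentile of the same array, and differences are DLEU1 vector minus control vector. A probe was called detected where the scanner software marked it as well above background, and both arrays detected 26279 probes, which carry 20246 gene names. Their median difference was -0.07, with an SD over probes of 0.88. From 282 probes with replicated spots, the SD of a single spot's difference was 0.08. It was 0.249 for the 10 such probes with a mean signal below 300, and neither value holds the variation between cultures. The vector's own gene DLEU1 was 6.67-fold higher on the DLEU1 vector array by probe A_23_P151337, from a level of 3.17 to 5.91. Its other probes are assigned to another DLEU1 transcript and differed by 0.85 and 0.54, from dim levels of -2.11 and -2.86. All 10 epithelial and squamous markers were detected on both arrays, 7 higher and 3 lower with DLEU1. The 2-fold threshold was reached upwards by 6 of the 10, beside 9.18% of all gene names, with KRT17 (3.09), KRT6A (2.91), KRT14 (2.85), DSG3 (2.51) and KRT5 (2.10) the highest, and EPCAM (-0.78), ITGA6 (-0.23) and ITGB4 (-0.09) were lower. Of 13 markers of other lineages 8 were detected, and CD3E, PECAM1, COL1A2, COL3A1 and DCN were not. COL1A1 (3.99) and VWF (3.70 and, by another probe, -0.07) were higher. CD14 (-1.60) was lower, from a dim level of -1.96, and was at -0.56 with normexp, where VWF was at 2.60. The part of these marker shifts in the values below was not tested.

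To show the element through which ISGF3 acts, the promoters of the members were read from RefSeq (GRCh38.p14), mostly upstream of each start site. The table held 6 promoters of 5 members, 2 of them for IFIT3, and those of IFIT2 and IFITM2 are not shown here. The stretch of each promoter around its matches to the ISRE core is printed 5′ to 3′ along the gene, with every match in capitals.
IFIT1, chr10:89392492-89392544, plus strand: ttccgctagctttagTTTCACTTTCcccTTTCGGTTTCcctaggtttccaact
IFIT3, first start, chr10:89327826-89327899, plus strand: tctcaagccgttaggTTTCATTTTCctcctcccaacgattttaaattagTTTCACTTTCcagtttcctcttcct
IFIT3, second start, chr10:89332420-89332502, plus strand: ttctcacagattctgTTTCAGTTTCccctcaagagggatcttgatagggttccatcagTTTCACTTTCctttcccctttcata
IFIT5, chr10:89414508-89414577, plus strand: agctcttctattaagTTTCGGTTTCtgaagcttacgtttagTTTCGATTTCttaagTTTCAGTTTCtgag
IFITM1, chr11:313985-314049, plus strand: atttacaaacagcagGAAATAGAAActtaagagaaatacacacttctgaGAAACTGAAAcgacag
IFITM3, chr11:320871-320927, minus strand: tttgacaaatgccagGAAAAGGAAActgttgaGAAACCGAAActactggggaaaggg

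The core searched was GAAANNGAAA, on both strands. All 6 promoters held at least 2 matches, whereas 3.57% of 35116 RefSeq promoters held at least 1 match and 0.259% held 2 or more. The IFIT1 matches lay from -116 to -94 relative to the start site, and the IFIT5 promoter held 3 matches, the last of which crossed the start. In the IFIT promoters every match lay on the strand opposite to the gene, and in IFITM1 and IFITM3 on the gene's own strand. The GAS core TTCNNNGAA, an element of the interferon gamma response, was found in IFITM1 only among the 6 promoters and in 7.66% of all promoters. It lay from -12 to -4 relative to the IFITM1 start and overlapped the ISRE match there. Among the genes shown, IFITM1 was higher and IFIT1 lower with the DLEU1 vector, as described next. Any link between the matches and the differences between the arrays was not tested, and a match is a description of sequence and not of binding.

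All 9 member probes were detected on both arrays. Of these, 6 were higher and 3 lower with the DLEU1 vector, with a median over probes of 0.40. The 2-fold threshold was reached upwards by 2 probes, both of IFITM1, and downwards by 0, while 8.98% of all probes detected on both arrays reached it upwards and 9.78% downwards. Higher probes made up 47.9% of all those at least 2-fold different, a share that was 18.1% when the spike-in probes were set equal on both arrays.

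**Figure D1:**
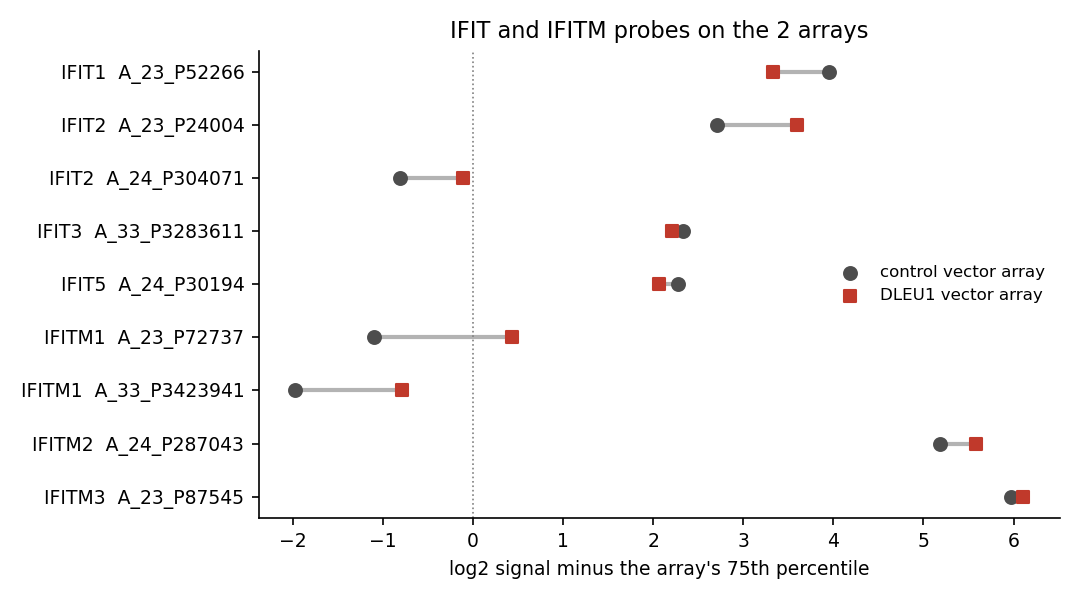
Level of each IFIT and IFITM probe on the control vector array (circles) and the DLEU1 vector array (squares), as log2 signal minus the 75th percentile of the array, with 1 array per group. The longest lines are those of the IFITM1 probes (1.53 and 1.18) and the shortest those of IFIT3 (-0.12, which is 0.02 with loess) and IFITM3 (0.14, which is -0.26 with the spike-in probes set equal), and lengths are comparable between probes while positions are not.

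IFITM1, an antiviral membrane protein found mainly at the cell surface, showed the largest differences of the 9 probes. Probe A_23_P72737 (chromosome 11, 315209 to 315268, plus strand of hg19, the build of all probe positions here) had a processed signal of 113 in control cells and 319 in DLEU1 cells. The level went from -1.10 to 0.43, a difference of 1.53 or 2.89-fold. The second probe, A_33_P3423941 (chromosome 11 from 315054 to 315113), had signals of 61.6 and 136, a difference of 1.18 or 2.27-fold. Both probes were thus more than 2-fold brighter on the DLEU1 vector array. They differed from each other by 0.35, which is an SD of 0.25 between the 2 probes. Over 4674 genes with several detected probes, the SD between probes of the same gene was 0.47 when pooled, with a median over genes of 0.23. Of all probes detected on both arrays, 3.90% were at least as high as the first probe and 6.77% at least as high as the second. Both were dim on the control vector array, where the raw signal was 5.75 and 3.62 times the local background. Background correction by normexp, which adds an offset to the signal, gave differences of 1.09 and 0.67, and with the spike-in probes set equal they were 1.13 and 0.78, so the second probe was then below 2-fold.

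IFITM2 and IFITM3, which act mainly in endosomal membranes, were bright on both arrays. The IFITM2 probe A_24_P287043 (chromosome 11 from 309109 to 309168, plus strand) had signals of 8795 and 11278. This is a difference of 0.40 or 1.32-fold, and 25.2% of detected probes were at least as high. The IFITM3 probe A_23_P87545 (chromosome 11 from 319855 to 319914, minus strand) had signals of 15157 and 16290, a difference of 0.14 or 1.10-fold. That was 1.77 times the SD of a spot, and 37.4% of detected probes were at least as high. The 2 differences were smaller than those of IFITM1, and their sign turned when the spike-in probes were set equal (-0.0013 for IFITM2 and -0.26 for IFITM3). The gap between the first IFITM1 probe and IFITM3 was 1.39, a value that no scaling by a constant can change, and with normexp the same probes differed by 1.09 and 0.09.

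The IFITM2 and IFITM3 probes are shown because they are the most alike of the member probes. They overlap over 40 bases, of which 34 are identical (85.0%), and capitals mark the bases that differ.
IFITM2: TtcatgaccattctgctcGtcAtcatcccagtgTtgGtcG
IFITM3: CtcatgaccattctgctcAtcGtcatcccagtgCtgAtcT
The next most similar pair of member probes shared 65.2% of 23 overlapping bases. How much of each transcript binds to the other's probe was not tested, so the small differences of IFITM2 and IFITM3 are uncertain as values of single genes.

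Among the IFIT genes, IFIT2 was higher with the DLEU1 vector. IFIT2 protein binds RNA and pairs with other IFIT proteins. Probe A_23_P24004 (chromosome 10 from 91068397 to 91068456, plus strand) had signals of 1582 and 2844. The level went from 2.71 to 3.59, a difference of 0.88 or 1.85-fold. Probe A_24_P304071, which lies nearer the 5′ end of the same transcript (chromosome 10 from 91066613 to 91066672), had signals of 138 and 219, a difference of 0.70 or 1.63-fold. The probes differed by 0.18, and both were below the 2-fold threshold, with 10.73% and 14.78% of detected probes at least as high. With quantile normalization and with loess the first probe passed 2-fold (1.03 and 1.06), as did 2435 and 2616 of 26279 detected probes upwards. With the spike-in probes set equal the 2 IFIT2 probes were at 0.49 and 0.30.

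IFIT1 was lower with the DLEU1 vector. IFIT1 protein recognises RNA caps that lack ribose methylation. Its probe A_23_P52266 (chromosome 10 from 91163438 to 91163497, plus strand) had signals of 3741 and 2366, and the level went from 3.95 to 3.33. The difference was -0.62, a 1.54-fold lower signal, and 20.7% of detected probes were at least as low. It passed the 2-fold threshold with the spike-in probes set equal (-1.02), a setting at which 5659 of 26279 detected probes did so downwards.

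IFIT3 and IFIT5 were within 2-fold of the control, and the size of their differences depended on the scaling. IFIT3 protein binds IFIT1 and strengthens its hold on RNA, and its probe A_33_P3283611 (chromosome 10 from 91099762 to 91099821, plus strand) had signals of 1213 and 1091. This gave a difference of -0.12, or -1.45 spot SDs, which turned to 0.02 with loess and was -0.51 with the spike-in probes set equal. IFIT5, which binds RNA with a triphosphate end, was measured by probe A_24_P30194 (chromosome 10 from 91179559 to 91179618, plus strand). Its signals were 1174 and 985, a difference of -0.22 or 1.16-fold lower, which was -0.61 with the spike-in probes set equal.

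By gene, with the brightest detected probe standing for each, 1 of 4 IFIT genes was higher and 3 were lower, with a median of -0.17. All 3 IFITM genes were higher, with a median of 0.40 that was -0.0013 when the spike-in probes were set equal. The median over all gene names detected on both arrays was -0.07. Of the 7 members, 1 (IFITM1) reached the 2-fold threshold upwards and 0 reached it downwards, beside 9.18% and 9.78% of all gene names. The gap between IFIT2 and IFIT1 was 1.51, and it ranged from 1.43 to 1.51 over the alternatives. Constant scaling and filters on other spots cannot change this gap. It was 1.48 with quantile normalization, 1.49 with loess, 1.43 against the nearest spots and 1.45 with normexp.

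**Figure D2:**
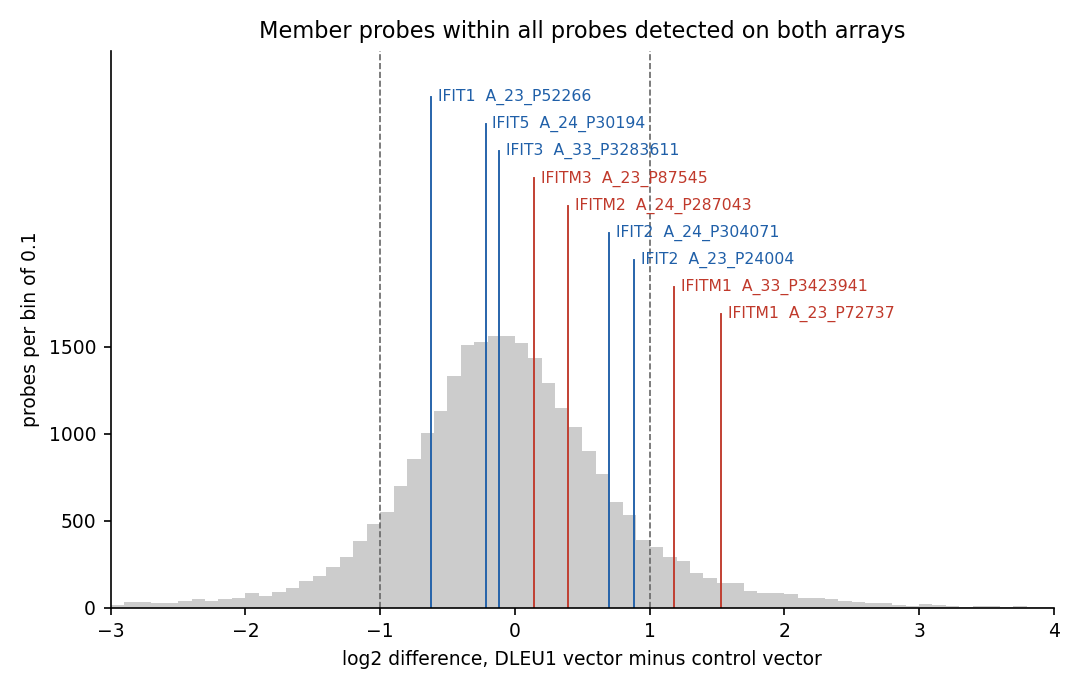
Histogram of the log2 difference (DLEU1 vector minus control vector) of the probes detected on both arrays, in bins of 0.1, with IFIT probes as blue and IFITM probes as red lines and the 2-fold limits dashed. The IFITM1 probes (1.53 and 1.18) lie beyond the upper limit and the other 7 between the limits. The sign of IFIT3 turned with loess, and the signs of IFITM2 and IFITM3 turned with the spike-in probes set equal.

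Relatives of the members outside the 7 names were read as well. IFITM10, a member whose role is poorly known, had a difference of 1.09 from a dim level of -2.69, which was 0.55 with normexp. IFITM4P, a pseudogene of the IFITM family whose probe may also bind IFITM transcripts, had a difference of 0.75. IFIT1B and IFITM5 were not well above background on either array.

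On the DLEU1 vector array some spots had a low local background, so each member spot was checked against it. The median background was 23 on this array, and 49 non-control spots lay more than 5 scaled median absolute deviations (MADs) below it, in rows 1 to 84 and columns 35 to 39. The control vector array had 0 such spots. Of the 26 low spots that were lit on the control vector array, 96.2% were at least 2-fold lower on the DLEU1 vector array, against 13.1% of all 30277 lit spots. None of the 9 member spots was among them, nor among the 137 spots found at 3 MADs, and their backgrounds lay between 23 and 28. The lowest were those of IFIT3 and IFITM1, equal to the array median. One neighbour of IFIT3 within 4 rows and columns was low at 3 MADs, and 7.32% of the lit neighbours of IFIT3 were at least 2-fold lower. Over the 9 member spots this share ran from 4.55% (IFITM3) to 17.6% (IFITM2). The IFITM3 spot, with a background of 28, was marked by the software as a background outlier on this array.

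The IFIT genes lie in a cluster on chromosome 10, with member probes spread over 113 kb, and the IFITM genes in a cluster of 10.8 kb on chromosome 11. Within 200 kb of the IFIT cluster, 5 of 12 neighbouring probes were detected on both arrays. Their differences ran from -0.12 to 0.61, and 0 reached 2-fold. LIPA, a lysosomal lipase, differed by 0.55 and PANK1, a kinase of coenzyme A synthesis, by 0.58, and these were 0.16 and 0.18 with the spike-in probes set equal. The probes of SLC16A12, a membrane transporter, were at 0.61 and -0.12. These 3 genes were chosen after their values were seen. Within 200 kb of the IFITM cluster, 17 of 32 neighbouring probes were detected, 10 higher and 7 lower, with a median of 0.04. ANO9, a membrane scramblase, was at least 2-fold higher (1.64), and BET1L, a Golgi transport protein, was at least 2-fold lower by 1 probe (-1.08) and not by its other probes (0.31 and 0.01).

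**Figure D3:**
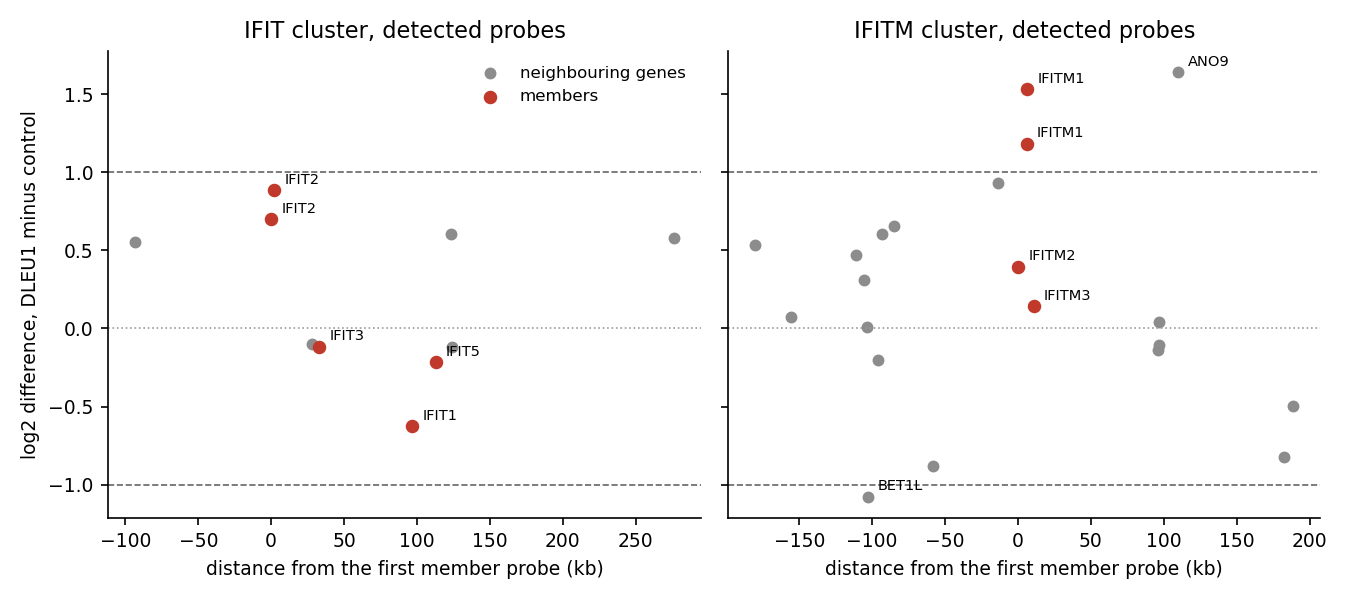
Log2 difference (DLEU1 vector minus control vector) of each probe detected on both arrays against its distance in kb from the first member probe, for the IFIT cluster (left) and the IFITM cluster (right), with members in red, neighbouring genes in grey and the 2-fold limits dashed. In the IFIT cluster, IFIT2 (0.88 and 0.70) and IFIT1 (-0.62) lie on opposite sides of 0, and in the IFITM cluster IFITM1 (1.53 and 1.18) lies above its neighbours of the family IFITM2 (0.40) and IFITM3 (0.14), which turned negative with the spike-in probes set equal.

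To set the members beside the rest of their pathway, 52 other type I ISGs were read, of which 49 were detected on both arrays. Of these, 28 were higher and 21 lower, a split that depended on the scaling, with 11 higher when the spike-in probes were set equal and 35 with loess. Their median was 0.10, and it was -0.015 with median scaling and -0.30 with the spike-in probes set equal. At least 2-fold higher were 3 genes (6.12%), RTP4 (2.45), SAMD9 (1.49) and BST2 (1.48), of which RTP4 assists the transport of receptors to the membrane and BST2, or tetherin, holds budding virus at the cell surface. At least 2-fold lower were 4 genes (8.16%), the mitochondrial RNA exonuclease PNPT1 (-1.64), the oligoadenylate synthetase OAS3 (-1.63), IFI44 (-1.51) and the nuclear body protein SP100 (-1.10, or -0.82 with loess). Among all gene names these shares were 9.18% and 9.78%. The probes of SP100 did not move together, with values from -1.10 to 0.08. RSAD2, the antiviral enzyme viperin, was well above background only with the DLEU1 vector, by 1 of its 2 probes, the other being detected on neither array. By that probe its scaled signal there was 19.95-fold the lowest detected signal of any probe on the control vector array. That lowest signal is not the detection limit of the RSAD2 spot, so the fold is no strict bound. RSAD2 was named after its value was seen. Both directions were present in this list under each scaling, as among the members.

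The receptors and kinases upstream were within 2-fold of the control. Of 9 detected genes, 4 were higher and 5 lower, and between 1 and 5 were higher over the scalings. IFNAR1 was at -0.14 (0.03 against the nearest spots) and IFNGR2 at -0.22. IFNAR2 was at -0.44 by its brightest probe and at -0.16 and -0.62 by its others. With the spike-in probes set equal the brightest IFNAR2 probe was at -0.83 and IFNGR2 at -0.62. IFNGR1 was at 0.0001, and over the scalings and normexp it ran from -0.40 to 0.20. Of the 10 factors that bind these promoter elements or feed back on the pathway, 7 were higher and 3 lower, with a median of 0.30 that was -0.10 with the spike-in probes set equal. STAT2 was higher, from a level of 4.13 to 6.07, a difference of 1.94, and IRF1, a factor induced by interferon, was higher by 1.03 (0.63 with the spike-in probes set equal). IRF9 differed by 0.79 by its brightest probe and by -0.20 by the other. SOCS1 (-0.93) and USP18 (-0.89), the latter also on the type I ISG list, were lower and were named after their values were seen. With median scaling and with the spike-in probes set equal, 2 of the 10 factors were at least 2-fold lower. At these settings 3200 and 5659 of all 26279 detected probes were at least 2-fold lower.

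The proteins that IFIT and IFITM proteins work with or against were read by the same measure. The 4 genes of cap methylation were within 2-fold, 2 higher and 2 lower (0 higher with the spike-in probes set equal, 3 with loess). CMTR2, which methylates the second cap-proximal nucleotide, was the lowest (-0.62). With the spike-in probes set equal it was beyond 2-fold (-1.02), a setting at which 5659 of 26279 detected probes were at least 2-fold lower. All 13 eIF3 subunits were lower (11 with loess and 12 with quantile normalization), with a median of -0.49. This median was -0.23 with loess, -0.30 with quantile normalization and -0.88 with the spike-in probes set equal. EIF3I (-3.97) was at least 2-fold lower. The EIF3I spot had a local background of 20, and 38.5% of its lit neighbours were at least 2-fold lower. Without it, all 12 others were lower, from -0.95 to -0.13. The 13 housekeeping genes had a median of -0.37 (-0.10 with loess), with 10 lower (8 with loess) and HPRT1 (-1.38) at least 2-fold lower. Of 7 partners and modifying enzymes of IFITM proteins, 3 were higher and 4 lower (1 higher with the spike-in probes set equal and 4 with loess), with CD9, a tetraspanin, at 0.98 and ZMPSTE24, a protease that associates with IFITM proteins, at -0.63. CMTR2, CD9 and ZMPSTE24, like EPCAM, ITGA6 and ITGB4 above, were named after their values were seen.

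**Figure D4:**
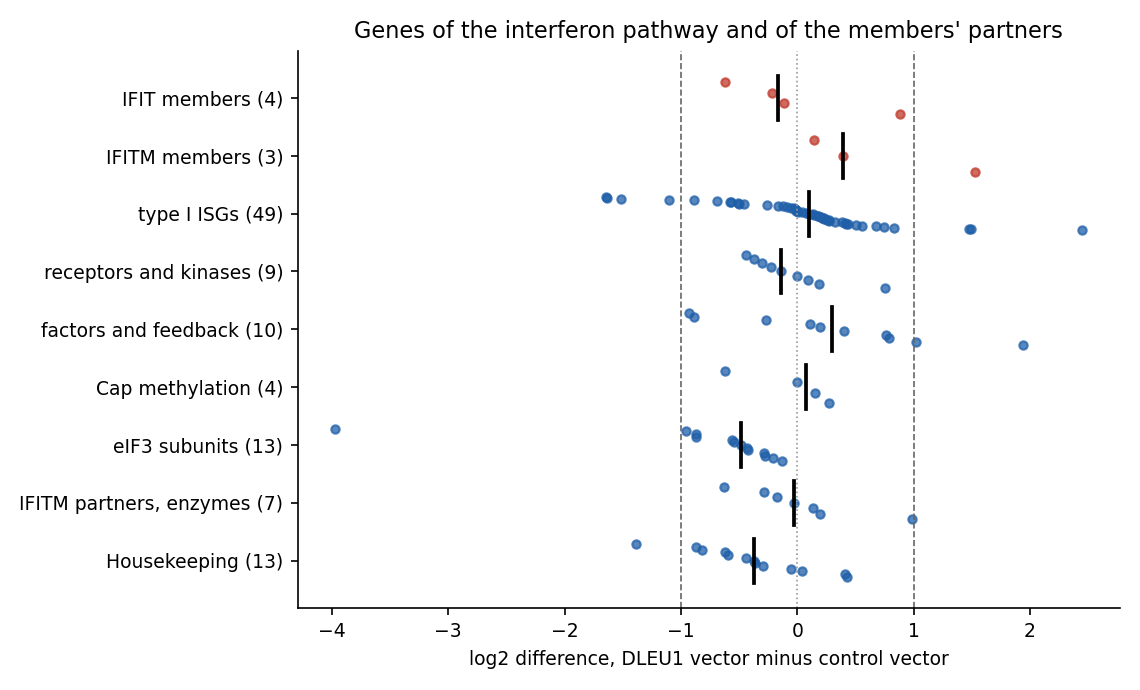
Log2 difference (DLEU1 vector minus control vector) of each gene detected on both arrays, by list, with 1 point per gene, the median as a black bar, the number of genes in parentheses and the 2-fold limits dashed. The IFIT members have a median of -0.17, the IFITM members 0.40 (-0.0013 with the spike-in probes set equal) and the type I ISGs 0.10 (negative with median scaling and with the spike-in probes set equal). The eIF3 subunits have a median of -0.49, which was -0.23 with loess.

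The member values were recomputed under other ways of processing. Of 150 probe values under 17 alternatives, 104 stayed within the spot SD of 0.08 and 3 changed sign, those of IFIT3 with loess and of IFITM2 and IFITM3 with the spike-in probes set equal. Alternatives that only leave out or re-admit other spots, or that use the rounded series values, return nearly the same value by construction. The count of 104 therefore does not measure stability. The probes of IFITM1 and IFIT2 were higher, and those of IFIT1 and IFIT5 lower, under every alternative that gave a value for them. The first IFITM1 probe ranged from 1.09 to 1.64, IFIT2 from 0.49 to 1.06 by its brighter probe, and IFIT1 from -1.02 to -0.43.

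**Figure D5:**
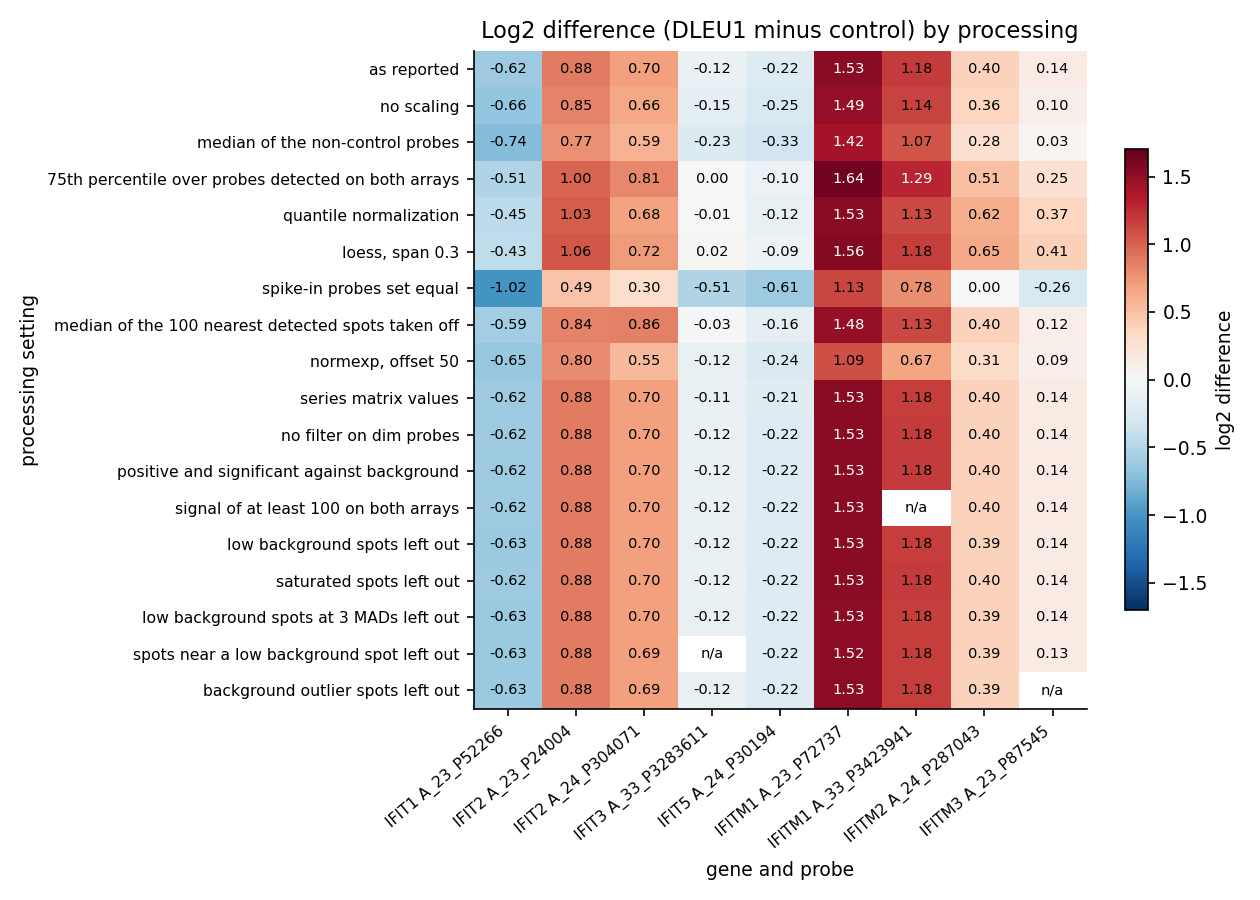
Log2 difference (DLEU1 vector minus control vector) of each member probe, by column, under each way of processing, by row, with red for higher and blue for lower on the DLEU1 vector array and n/a where the probe was left out. The IFITM1 and IFIT2 columns are positive and the IFIT1 and IFIT5 columns negative throughout, whereas IFIT3 turned with loess and IFITM2 and IFITM3 with the spike-in probes set equal.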

How the data were processed

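Gene expression was measured on 2 Agilent SurePrint G3 arrays, 1 per vector. The authors' scanner software, Agilent Feature Extraction, version 10.7 in the submitters' processing notes, made the deposited intensity values, which per the file headers had the local background subtracted and the spatial trend removed. The series values held the same intensity, rounded, and neither was normalized between arrays. Probe positions were on hg19, and promoters were from RefSeq. Exon and UTR annotation was not used here.

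Control spots and outlier spots (84 and 103) were left out, and spots of a probe were averaged. The log2 signal was centred on the 75th percentile over non-control probes (7.92 for the control vector and 7.88 for the DLEU1 vector). On these arrays 47.6% and 48.1% of probes were well above background, and 0 spots were saturated. The number of arrays limits the precision. Calculations used Python 3.11.15, pandas 2.3.3 and limma 3.58.1 in R 4.3.3 for normexp. The 75th percentile, median, detected-probe, quantile and loess scalings were tested on data simulated from the control vector array, with changes in brighter probes only. The spike-in, nearest-spot and normexp settings were not tested in this way. No test was run, since each group had 1 array.

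Named genes were all members with every probe, DLEU1, the STAT2, IRF9 and receptor genes, the other family members, and every gene of a list or neighbour of a cluster detected on both arrays and at least 2-fold different, at most 5 each way. Genes named outside this rule are marked as chosen after their values were seen. Another gene of this rule is not reported here. The members and lists were chosen with earlier results of these data known. The alternatives were scaling (none, median, detected probes, quantile, loess, spike-in probes, nearest spots), normexp, the series values, filters on dim probes, probe averaging, fold thresholds, and leaving out saturated or low background spots. Leaving out spots low at 3 MADs, spots near them and background outliers was added after seeing the data.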

Additional observations from a re-analysis of the deposited data

How the results depend on the processing

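The IFIT median (-0.17) was -0.28 when arrays were centred on their median, -0.054 on the 75th percentile of detected probes, -0.067 after quantile normalization, -0.037 with loess and -0.56 with the spike-in probes set equal. The IFITM median (0.40) was 0.28, 0.51, 0.62, 0.65 and -0.0013 under the same settings in that order, 0.31 with normexp and 0.96 without background outlier spots, a setting that removes IFITM3 and leaves 2 genes. The median of the type I ISGs (0.10) was -0.015, 0.21, 0.19, 0.22 and -0.30 in that order. Member probes at least 2-fold higher numbered 2 as reported, 4 at a 1.5-fold threshold, 0 at a 3-fold threshold and 1 each with normexp, with the spike-in probes set equal and when signals under 100 were left out, which removes the dimmer IFITM1 probe. With quantile normalization and with loess they numbered 3. Those at least 2-fold lower numbered 0 as reported and 1 at the 1.5-fold threshold and with the spike-in probes set equal. Of all 26279 probes, 2360 were at least 2-fold higher and 2571 lower as reported. These counts were 1254 and 5659 with the spike-in probes set equal, and 1329 and 1729 with normexp. With signals under 100 left out they were 1226 and 1740 of 17490 probes. Counts over all probes at the 1.5-fold and 3-fold thresholds are not given here. The median over all probes detected on both arrays moved by -0.11 when centred on the median. On the 75th percentile of detected probes it moved by 0.11, and with the spike-in probes set equal by -0.40. Without a filter on dim probes the median was taken over all 58201 probes, detected or not, and lay 0.11 higher. The spike-in shift rests on 8 probes whose unscaled differences ran from -0.19 to 0.54. Leaving out the low background spots moved no member probe by more than the spot SD, since no member spot was among them. Leaving out saturated spots changed nothing because none was saturated. No paired analysis was possible because each group had 1 array, and for the same reason no replicate could be left out. Low signal over background limits IFITM1 and the second IFIT2 probe most.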

Other observations

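Other antiviral families were chosen here after their values were seen. Of the OAS genes, which make the oligoadenylate that activates RNase L, OAS1 (0.44), OAS2 (0.18) and the related OASL (0.51) were higher with the DLEU1 vector, but were at 0.039, -0.22 and 0.11 with the spike-in probes set equal. OAS3 was lower by both of its probes (-1.63 and -1.51). The dynamin-like GTPases MX1 and MX2 differed by 0.23 and -0.12, and the MX2 probes ranged from -0.12 to 0.60. With the spike-in probes set equal MX1 was at -0.16, and with normexp MX2 was at 0.26. SAMD9 (1.49) and its neighbour SAMD9L (0.74) were both higher. No difference among these genes was tested, since each group had 1 array.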
